A study of Mus musculus with 14 samples.

Results

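The genes examined are 9 parts of the bile acid sensing and hepatocyte identity network of the mouse liver: the nuclear receptors Nr1h4 (FXR), Nr0b2 (SHP) and Nr5a2 (LRH-1), the growth factor receptor pair Fgfr4 and Klb, the transcription factors Hnf4a and Foxa2, and the membrane receptors Gpbar1 (TGR5) and S1pr2. They were chosen by name as a functional group, 9 of the 54532 genes in the count table, and 8 of the 9 passed the filter on low counts that left 17874 genes for testing. Gpbar1 did not pass it. Transcript levels came from RNA sequencing of liver in 5 groups of C57BL/6J mice aged 52 weeks: tumour tissue of female Abcb11-/- mice (n = 3 libraries), non-tumour liver of female Abcb11-/- mice (n = 3), liver of wild-type females (n = 2, numbered 2 and 3), liver of male Abcb11-/- mice (n = 3) and liver of wild-type males (n = 3). Abcb11 encodes the bile salt export pump of the hepatocyte's canalicular membrane. The labels name no treatment and do not say which part of Abcb11 was removed, and the male livers carry no tumour label. The series' design gives 3 mice per group, so a wild-type female numbered 1 is not analysed here, and p-values measure the spread between these libraries.

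FXR is the nuclear receptor that bile acids activate inside hepatocytes and gut cells. In the liver it switches on SHP, which has no DNA-binding domain and acts as a repressor of LRH-1 and HNF4A on the promoters of bile acid synthesis genes such as Cyp7a1. From the gut, FXR acts on the liver through the hormone FGF15, whose receptor on hepatocytes is FGFR4 with its co-receptor beta-Klotho, the product of Klb. HNF4A and FOXA2 keep hepatocyte genes active, and TGR5 and S1PR2 sense bile acids at the cell surface.

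The libraries held 14745140 to 19480538 counts. Levels are given in CPM, the counts of a gene relative to the TMM-scaled library total, with the SD over libraries, and fold changes as log2 values with an SE derived from the edgeR test statistic. A gene is called changed at an edgeR adjusted p under 0.05, with adjustment over all 17874 genes. As a check of the labels, Abcb11 averaged 25.2 ± 8.34 CPM in knockout tumours and 25.0 ± 9.61 CPM in the non-tumour livers, against 379 ± 154 CPM in wild-type females. It averaged 80.7 ± 21.0 CPM in knockout males, against 309 ± 12.3 CPM in wild-type males. All 6 hepatocyte markers were detected in every group, and their summed level was 43893 to 77938 CPM in tumours, 43004 to 76947 CPM in non-tumour knockout liver and 42475 to 43472 CPM in wild-type females. In males it was 49629 to 64234 CPM with the knockout, against 23515 to 49748 CPM in wild type. The lowest of these, wild-type male 3, also had 407 CPM of summed lymphocyte markers, against 5.50 and 4.72 CPM in wild-type males 1 and 2. In such bulk tissue, fewer cells of a type and less RNA per cell cannot be told apart.

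Promoters are shown for Nr0b2, which passed the threshold above in no comparison, and for Nr5a2, which passed it in more comparisons than any other member. Both are RefSeq sequences of GRCm38.p6, from 250 bases before to 50 bases after the transcription start, and all 9 genes matched at least 1 of 13 such promoters. In the Nr0b2 promoter (chr4:133553126-133553425, plus strand) capitals mark an extended LRH-1 motif, CAAGGNCA, at -201 to -194, and the core motif TCAAGG at -68 to -63 and again at -35 to -30. In the Nr5a2 promoter (chr1:136960399-136960698, minus strand) capitals mark the nuclear receptor motif AGGTCA at -64 to -59.
Nr0b2: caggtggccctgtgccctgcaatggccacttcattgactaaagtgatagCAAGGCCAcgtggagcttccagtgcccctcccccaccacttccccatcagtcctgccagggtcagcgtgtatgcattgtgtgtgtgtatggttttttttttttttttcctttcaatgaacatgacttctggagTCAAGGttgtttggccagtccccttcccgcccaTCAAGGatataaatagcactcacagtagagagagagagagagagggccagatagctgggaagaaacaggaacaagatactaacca
Nr5a2: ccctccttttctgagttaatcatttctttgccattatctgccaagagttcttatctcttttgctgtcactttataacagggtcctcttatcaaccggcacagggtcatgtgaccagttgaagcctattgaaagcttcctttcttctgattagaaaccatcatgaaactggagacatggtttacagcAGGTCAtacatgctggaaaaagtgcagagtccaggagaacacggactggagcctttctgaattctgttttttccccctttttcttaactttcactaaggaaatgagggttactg
Searched on both strands, TCAAGG lay in 3 of the 13 promoters and in 14.4% of all 32851 mouse promoters in the table. CAAGGNCA, which can share the letters CAAGG with it, lay in 1 of the 13 and in 6.71% of all, and AGGTCA in 3 of the 13 and in 16.3% of all. The inverted repeat bound by FXR, AGGTCA followed after 1 base by its reverse complement TGACCT, was in none of the 13 and in 0.00913% of all promoters. The same motif repeated head to tail after 1 base, a further arrangement that receptor dimers bind, was also in none of the 13, and in 0.0396% of all. These matches describe the letters in a 300-base window and not the binding of a factor.

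Measured per transcript length, the members spanned a wide range in every group. Over the 14 libraries the median level in the authors' FPKM (fragments relative to transcript length and library size) was 66.3 for Hnf4a, 63.1 for Nr1h4, 23.0 for Nr0b2, 16.6 for Foxa2, 14.97 for Fgfr4, 3.71 for Nr5a2, 1.70 for Klb, 0.417 for S1pr2 and 0 for Gpbar1. The libraries of Hnf4a (39.7 to 77.7 FPKM) and Nr1h4 (29.7 to 121 FPKM) overlapped, as did those of Nr0b2, Foxa2 and Fgfr4, whereas the 5 most abundant members lay above Nr5a2 in every library. On this scale the transcripts of LRH-1 and beta-Klotho were low beside those of FXR and FGFR4. Hnf4a was also the steadiest in CPM, with a 1.91-fold range over the 14 libraries and an SD of log2 CPM below that of all but 2.92% of the genes tested. Nr0b2 was the most variable member, with a 9.25-fold range, and 62.9% of tested genes had a lower SD.

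**Figure D1:**
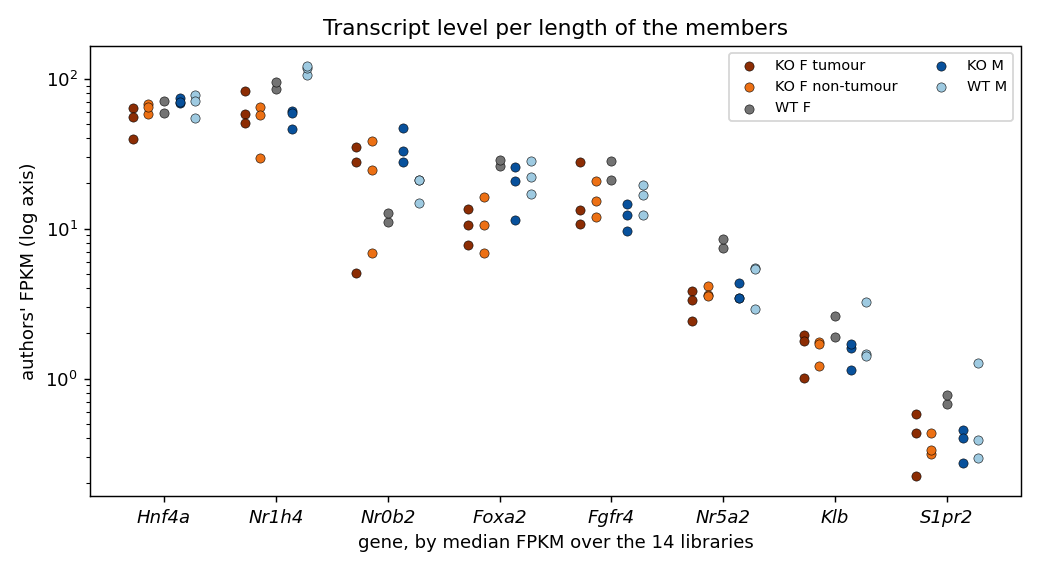
Authors' FPKM (log axis) of 8 members in each of the 14 libraries, by gene in order of the median; colours mark the 5 groups. Hnf4a and Nr1h4 sit at medians of 66.3 and 63.1 FPKM and S1pr2 at 0.417 FPKM; Gpbar1, with a median of 0, is not drawn.

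In non-tumour knockout females against wild-type females, the transcript of LRH-1 fell and no other member passed the threshold. This was 1 of 8 members tested, against a background of 4.16% of all genes called, 1.9% higher and 2.26% lower. That background was itself unsteady: the 743 genes called became 17 when wild-type female 3 was left out, 184 for number 2 of that group, 198 and 146 for non-tumour libraries 1 and 3, 471 for knockout male 1 and 1215 for wild-type male 3, and limma-voom called 3397. For 5 of the 8, Nr1h4, Nr5a2, Klb, Foxa2 and S1pr2, every non-tumour library lay below both wild-type libraries, beside 26.5% of all genes lower in this way and 49.7% separated in either direction. The median log2 difference of the 8 members was -0.70, against -0.00016 over all genes. In tumours against wild-type females, Nr5a2 and Foxa2 fell, 2 of 8 against a background of 9.61% called, 3.94% higher and 5.67% lower. The 1718 genes behind that share became 157 when wild-type female 3 was left out, 701 for number 2 of that group, and 799 and 905 for tumours 2 and 3. Of the 8, 4 (Nr1h4, Nr5a2, Foxa2 and S1pr2) lay wholly below the wild-type libraries, beside 27.6% of all genes lower in this way and 52.4% separated in either direction. Between tumour and non-tumour knockout tissue edgeR called none of the 8 and 0% of all genes, and no member was separated between the groups, beside 14% of all genes. At an unadjusted p under 0.05 that comparison held 0 of the 8 members and 1217 genes. DESeq2 called 27 genes and limma-voom 0. With edgeR 338 of 28842 genes were called without the low-count filter, 42 without tumour 1 and 20 without both knockout female libraries numbered 1. DESeq2 and limma-voom called none of the members there.

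In males the FXR transcript was the only member called, lower in knockout livers, and that call was lost in 6 of 25 alternatives. Nr1h4 was 1 of 8 members called in knockout against wild-type males, against a background of 20.6% of all genes called, 14.3% higher and 6.32% lower. With a score of daily clock genes as a covariate, described with Nr0b2, 372 genes were called in males instead of 3688, 335 higher and 37 lower, and Nr1h4 was not among them. In the male comparison 1 member lay wholly below (Nr1h4) and 1 wholly above (Nr0b2) the wild-type libraries, beside 35.3% of all genes separated. Between wild-type males and wild-type females, Nr5a2 was lower in males and was the only member called, against 23.1% of all genes, 7.03% higher and 16.1% lower in males, while 2 members lay wholly lower in males (Nr5a2 and Fgfr4) and 2 wholly higher (Nr1h4 and Nr0b2), beside 48.9% of all genes separated. A test of the difference between the female and the male knockout effect called none of the 8 and 10.9% of all genes; 2 of the 8, Nr5a2 and Foxa2, had an unadjusted p under 0.05 in edgeR. The comparisons with wild-type females share the same 2 libraries.

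**Figure D2:**
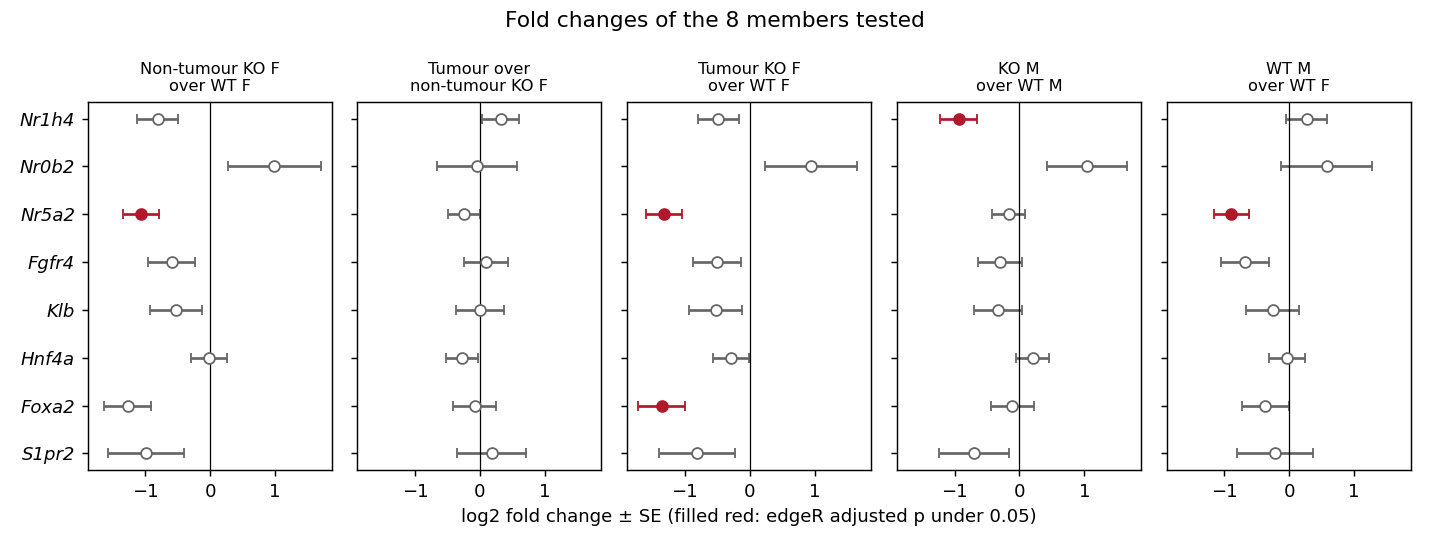
Log2 fold change with SE of the 8 members tested, in 5 comparisons, with the group named above each panel over the one named below it; filled red points have an edgeR adjusted p under 0.05. Nr5a2 is called against wild-type females in tumours (-1.32), non-tumour liver (-1.07) and wild-type males (-0.89), Foxa2 in tumours (-1.35) and Nr1h4 in males (-0.94).

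Nr1h4 (ENSMUSG00000047638, chromosome 10, 89454234 to 89533585, minus strand, GRCm38) encodes FXR, the bile acid receptor. It stood at 149, 144 and 118 CPM in knockout males 1, 2 and 3, against 238, 266 and 284 CPM in wild-type males 1, 2 and 3. In females it stood at 204, 141 and 124 CPM in tumours 1, 2 and 3, at 161, 139 and 73.4 CPM in non-tumour knockout livers 1, 2 and 3, against 204 and 232 CPM for wild-type females 2 and 3. All 3 knockout males lay below all 3 wild-type males, and all 6 knockout female libraries lay below both wild-type females, tumour 1 by less than the rounding of these values. The log2 fold change was -0.94 ± 0.29 in males (edgeR adjusted p = 0.0325), and it was -0.81 ± 0.32 in non-tumour knockout females (edgeR adjusted p = 0.155; -0.88 ± 0.24 and 0.0498 with the replicate number as a block within knockout females, added after seeing the data) and -0.48 ± 0.32 in tumours against wild-type females (edgeR adjusted p = 0.35). A difference between the knockout effects in the sexes did not pass the test (edgeR adjusted p = 0.876). The call in males was lost without knockout male 1, 2 or 3 or without wild-type male 2 (edgeR adjusted p = 0.0507 to 0.107), with limma-voom (adjusted p = 0.0529) and with the clock score.

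Nr0b2 (ENSMUSG00000037583, chromosome 4, 133553376 to 133556536, plus strand) encodes SHP, the repressor that FXR induces and whose promoter is printed above. It stood at 56.6, 39.7 and 35.0 CPM in knockout males 1, 2 and 3, against 23.4, 23.3 and 17.1 CPM in wild-type males. Every knockout male lay above every wild-type male, although the log2 difference of 1.04 ± 0.62 did not pass the test (edgeR adjusted p = 0.26). In knockout females it stood at 6.12, 33.2 and 42.2 CPM in tumours 1, 2 and 3 and at 8.34, 46.2 and 30.1 CPM in non-tumour livers 1, 2 and 3, against 13.0 and 15.3 CPM in wild-type females 2 and 3. Both knockout female libraries numbered 1 lay below the wild-type females and the other 4 lay above them, so the groups overlapped. The log2 difference was 0.99 ± 0.71 in non-tumour liver and 0.94 ± 0.71 in tumours against wild-type females (edgeR adjusted p = 0.463 and 0.43). Without the filter on low counts Nr0b2 was called in all 3 comparisons (edgeR adjusted p = 0.0248 in non-tumour liver, 0.0292 in tumours and 0.00701 in males), and in males also with only the groups compared (0.0454) and with the block within knockout females (0.0107).

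**Figure D3:**
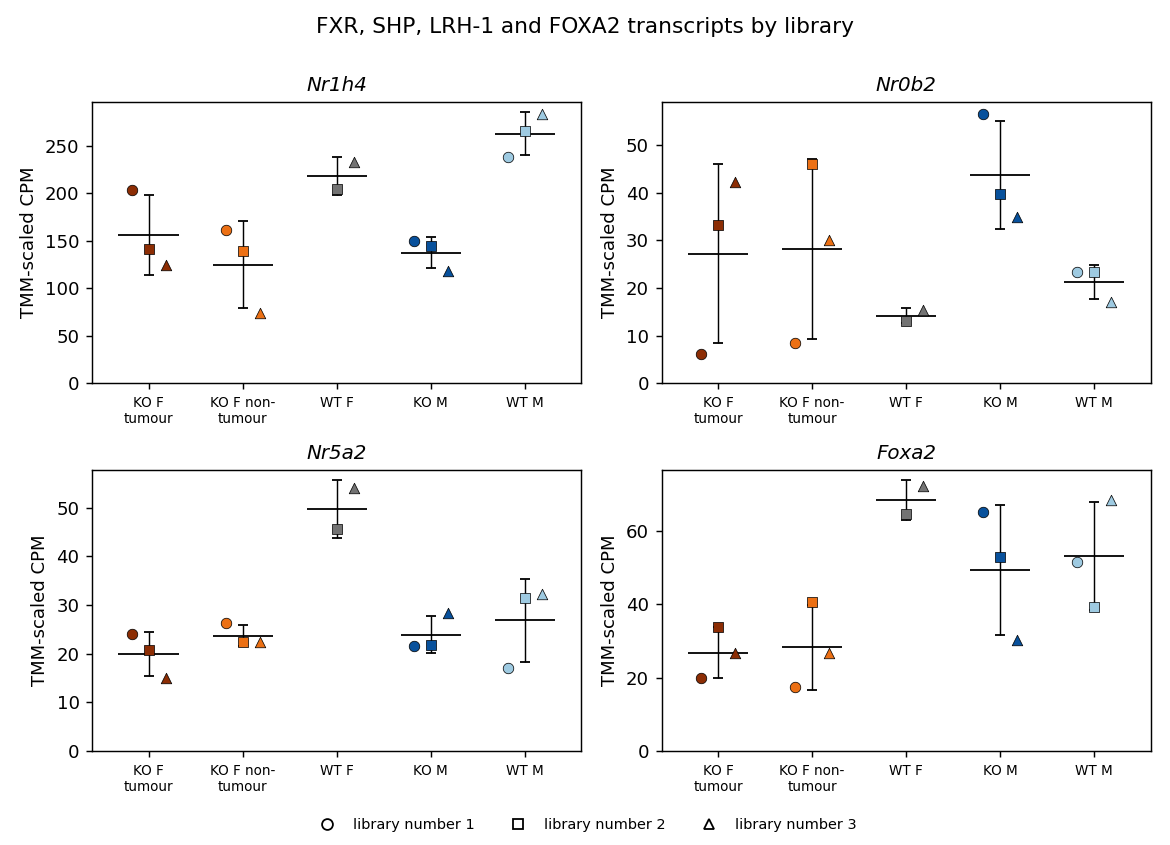
TMM-scaled CPM of Nr1h4, Nr0b2, Nr5a2 and Foxa2 in each library by group; symbols mark the library number, the line the mean and the bar the SD (n = 3, wild-type females n = 2). Knockout males (118 to 149 CPM) lie below wild-type males (238 to 284 CPM) for Nr1h4, and both wild-type females stand above every other library for Nr5a2.

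The number 1 libraries of the knockout females were also the highest or the lowest of their group for the other members. Within tumours and within non-tumour livers, library 1 was at the same extreme for all 8 members tested. It was the highest for Nr1h4, Nr5a2, Fgfr4, Klb and Hnf4a and the lowest for Nr0b2, Foxa2 and S1pr2. Of all tested genes 30.6% had library 1 at the same extreme in both tissues. Library 2 was at the same extreme for 4 of the 8 members (28.5% of all genes) and library 3 for 2 of the 8 (29.7% of all genes). These are ranks among 3 libraries and do not measure a distance. Non-tumour livers 1 and 3, for example, had 350 and 337 CPM of Hnf4a and 8.55 and 8.32 CPM of Klb. Nr0b2, described above, is among the 8, and all 8 were measured in the same libraries.

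A score of daily clock genes was lowest, among the knockout female libraries, in the same 2 as Nr0b2, those numbered 1, and was higher in knockout than in wild-type males. The score is the mean log2 CPM of 8 genes that peak towards evening, such as Per2 and Dbp, minus that of 4 that peak towards morning, such as Arntl. It was 0.0398, 2.61 and 4.26 in tumours 1, 2 and 3, -0.293, 3.12 and 4.86 in non-tumour livers 1, 2 and 3, and 1.73 and 1.27 in wild-type females 2 and 3. It was 3.46, 2.70 and 3.15 in knockout males and -1.85, -1.42 and -1.52 in wild-type males 1, 2 and 3. Beyond these the order of the scores matched that of Nr0b2 only in part, and a link between the 2 was not tested. Both rose from tumour 1 to tumour 2 to tumour 3, and knockout male 1 was the highest of its group in both. Non-tumour liver 3 had the highest score but less Nr0b2 than non-tumour liver 2, and knockout male 3 scored above knockout male 2 with less Nr0b2. Wild-type males had the lowest scores of all but more Nr0b2 than the knockout females numbered 1. The labels give no hour of collection. With the score as a covariate the log2 difference of Nr0b2 in males turned to -1.44 (edgeR adjusted p = 0.279), that of Nr0b2 in non-tumour and tumour knockout females against wild-type females came to 0.23 and 0.17 (edgeR adjusted p = 0.807 and 0.836), and that of Nr1h4 in males to -0.09 (edgeR adjusted p = 0.957). In males the score and the genotype separate the libraries in the same way and cannot be told apart. In non-tumour liver against wild-type females the difference of Nr1h4 under this covariate was -0.67 (edgeR adjusted p = 0.154).

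**Figure D4:**
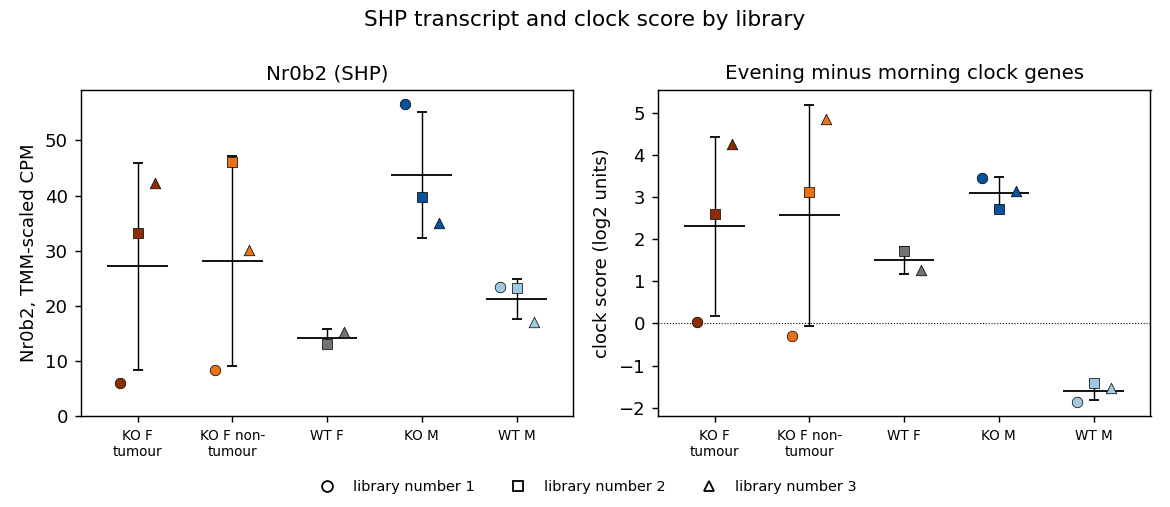
TMM-scaled CPM of Nr0b2 (left) and the clock score in log2 units (right) in each library by group; symbols mark the library number, the line the mean and the bar the SD. Libraries numbered 1 of both knockout female groups are low in both panels (6.12 and 8.34 CPM; 0.0398 and -0.293), and knockout males lie above wild-type males in both.

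Nr5a2 (ENSMUSG00000026398, chromosome 1, 136842571 to 136960448, minus strand) encodes LRH-1, the receptor that drives Cyp7a1 and is held back by SHP. It stood at 24.1, 20.8 and 15.1 CPM in tumours and at 26.3, 22.5 and 22.4 CPM in non-tumour knockout livers, against 45.6 and 54.0 CPM in wild-type females. In males it stood at 21.6, 21.7 and 28.3 CPM in knockout livers and at 17.0, 31.3 and 32.2 CPM in wild-type livers. The wild-type females stood above all other 12 libraries, which overlapped one another. Nr5a2 fell by 1.32 ± 0.27 on the log2 scale in tumours (adjusted p = 0.00973 in edgeR) and by 1.07 ± 0.27 in non-tumour liver (edgeR adjusted p = 0.0419) against wild-type females, and was lower by -0.89 ± 0.27 in wild-type males than in wild-type females (edgeR adjusted p = 0.03). It averaged 23.9 ± 3.84 CPM in knockout males against 26.9 ± 8.53 CPM in wild-type males, with overlap. The knockout difference in females minus that in males was -0.90 ± 0.37 and did not pass the test (edgeR adjusted p = 0.13).

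Each of these calls of Nr5a2 rests on 2 wild-type females. Without wild-type female 3 the adjusted p was 0.141 in tumours, 0.509 in non-tumour liver and 0.242 for wild-type males. The fall in non-tumour liver also lost its call without wild-type female 2, tumour 2, any of the non-tumour libraries, or knockout male 1 or 2, with an edgeR adjusted p of 0.0533 to 0.135. It was also lost with the replicate block (0.0803), the clock score (0.0629) and both knockout female libraries numbered 1 left out (0.0927). The sex difference lost its call without wild-type female 2, tumour 2, non-tumour library 1 or 3, or wild-type male 1 (edgeR adjusted p = 0.0543 to 0.128), as well as without the low-count filter (0.0513), with only the groups compared (0.114), with the replicate block (0.0542) and without both knockout female libraries numbered 1 (0.0559). In every alternative tried, including these, the log2 difference of Nr5a2 against wild-type females was negative, at -1.47 to -1.15 in tumours, -1.18 to -0.90 in non-tumour liver and -1.13 to -0.55 in wild-type males.

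Fgfr4 (ENSMUSG00000005320, chromosome 13, 55152640 to 55168759, plus strand) encodes the hepatocyte receptor of FGF15. It stood at 105, 40.0 and 49.8 CPM in tumours and at 79.7, 57.6 and 45.2 CPM in non-tumour knockout livers, against 77.6 and 106 CPM in wild-type females. In males it stood at 55.0, 47.0 and 38.2 CPM in knockout livers and at 58.6, 42.6 and 71.0 CPM in wild-type livers. Knockout and wild-type libraries overlapped in both sexes, with tumour 1 nearly as high as the higher wild-type female. The log2 difference was -0.60 ± 0.37 in non-tumour liver and -0.50 ± 0.37 in tumours against wild-type females (edgeR adjusted p = 0.38 and 0.41). Wild-type males lay below wild-type females, by -0.68 ± 0.37 (edgeR adjusted p = 0.199), and by -1.31 with the clock score as a covariate (edgeR adjusted p = 0.0305).

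Klb (ENSMUSG00000029195, chromosome 5, 65348314 to 65384007, plus strand) encodes beta-Klotho, without which FGF15 signals poorly through FGFR4. It stood at 9.46, 4.78 and 8.57 CPM in tumours and at 8.55, 5.81 and 8.32 CPM in non-tumour knockout livers, against 9.04 and 12.8 CPM in wild-type females. In males it stood at 7.74, 5.55 and 8.59 CPM in knockout livers and at 14.5, 6.44 and 6.61 CPM in wild-type livers. The highest library of all was wild-type male 1, and only the non-tumour livers were separated from their wild-type group. The log2 difference was -0.53 ± 0.41 in non-tumour liver and -0.52 ± 0.41 in tumours against wild-type females (edgeR adjusted p = 0.491 and 0.439).

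Hnf4a (ENSMUSG00000017950, chromosome 2, 163506808 to 163572910, plus strand) encodes HNF4A, the nuclear receptor on which most hepatocyte-specific transcription depends. It stood at 328, 201 and 286 CPM in tumours and at 350, 299 and 337 CPM in non-tumour knockout livers, against 299 and 366 CPM in wild-type females. In males it stood at 382, 357 and 378 CPM in knockout livers and at 369, 333 and 268 CPM in wild-type livers. All groups compared overlapped, and the lowest library was tumour 2. Tumours differed from non-tumour liver by -0.28 ± 0.25 and from wild-type females by -0.29 ± 0.28 (edgeR adjusted p = 0.919 and 0.531). The antisense gene Hnf4aos, which overlaps Hnf4a, had 15 to 248 counts per library. The small RNA gene Gm25881, which overlaps it on the same strand, had 0 to 24. Whether counting used strand is not given in the sources used here. No other member overlaps an annotated gene.

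**Figure D5:**
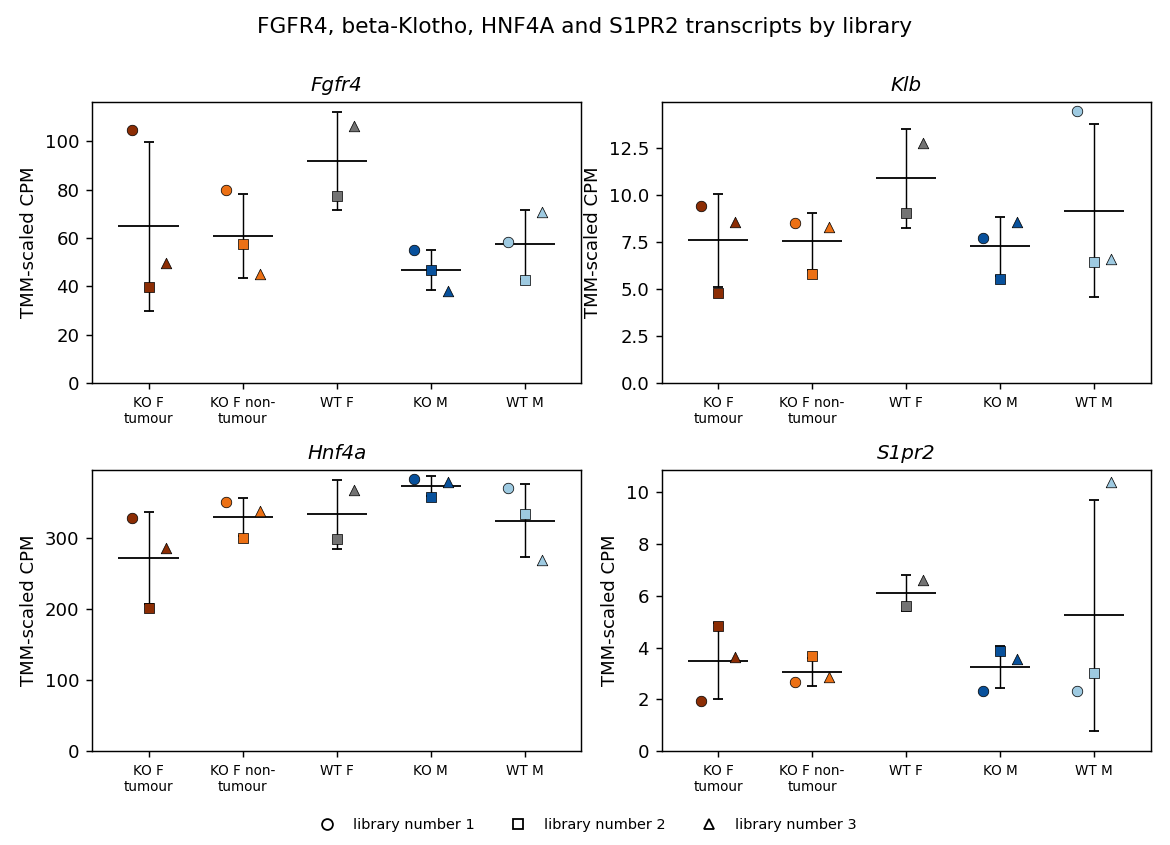
TMM-scaled CPM of Fgfr4, Klb, Hnf4a and S1pr2 in each library by group; symbols mark the library number, the line the mean and the bar the SD (n = 3, wild-type females n = 2). Knockout and wild-type groups overlap in most panels, and wild-type male 3 stands alone at 10.4 CPM of S1pr2.

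Foxa2 (ENSMUSG00000037025, chromosome 2, 148042877 to 148046969, minus strand) encodes a pioneer factor that opens chromatin at liver enhancers and limits bile acid injury in mice. It stood at 19.8, 33.7 and 26.8 CPM in tumours and at 17.5, 40.6 and 26.8 CPM in non-tumour knockout livers, against 64.7 and 72.3 CPM in wild-type females. In males it stood at 65.1, 52.9 and 30.1 CPM in knockout livers and at 51.6, 39.2 and 68.6 CPM in wild-type livers. Every female knockout library lay below both wild-type females, whereas the male groups overlapped. Foxa2 fell in tumours against wild-type females, with a log2 difference of -1.35 ± 0.36 (edgeR adjusted p = 0.0315). In non-tumour liver the log2 difference was -1.27 ± 0.36 and missed the threshold (edgeR adjusted p = 0.0604). The knockout difference in females minus that in males was -1.17 ± 0.49 (edgeR adjusted p = 0.137). The call in tumours was lost without tumour 1 or 3 or either wild-type female, with an edgeR adjusted p of 0.0815 to 0.227, without both knockout female libraries numbered 1 (0.0788) and with the replicate block (0.0555). In non-tumour liver the adjusted p ran from 0.00276 to 0.499 over the 25 alternatives, of which 8 passed the threshold.

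S1pr2 (ENSMUSG00000043895, chromosome 9, 20962361 to 20976781, minus strand) encodes a receptor for sphingosine 1-phosphate that conjugated bile acids also activate in hepatocytes. It stood at 1.92, 4.83 and 3.65 CPM in tumours and at 2.68, 3.68 and 2.85 CPM in non-tumour knockout livers, against 5.61 and 6.60 CPM in wild-type females. In males it stood at 2.31, 3.87 and 3.56 CPM in knockout livers and at 2.33, 3.01 and 10.4 CPM in wild-type livers. Both wild-type females lay above all female knockout libraries, and 1 male library, wild-type male 3, was far above the rest. The log2 difference was -0.99 ± 0.59 in non-tumour liver, -0.81 ± 0.59 in tumours and -0.70 ± 0.54 in knockout males, each against its own wild type (edgeR adjusted p = 0.356, 0.4 and 0.384). Without wild-type male 3, the library with 407 CPM of lymphocyte markers, the male difference turned to 0.17 (edgeR adjusted p = 0.825), and the part of these markers in the result was not tested.

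Gpbar1 (ENSMUSG00000064272, chromosome 1, 74278550 to 74279624, plus strand) encodes TGR5, a bile acid receptor known in liver mainly from cholangiocytes, Kupffer cells and sinusoidal endothelium. It had 0, 11 and 2 counts in tumours 1, 2 and 3 and 1, 0 and 0 counts in non-tumour knockout livers, against 0 in both wild-type females. In males it had 3, 2 and 0 counts in knockout livers and 0 in all wild-type livers. All but tumour 2 were at or under a floor of 3 counts, so no fold is given, and a difference was not detectable at this depth. Summed markers of cholangiocytes, the cells lining bile ducts, were 732 to 1408 CPM in tumours, 475 to 621 CPM in non-tumour liver and 178 to 319 CPM in wild-type females. In males they were 89.6, 385 and 88.1 CPM in knockout livers 1, 2 and 3, against 92.2 to 120 CPM in wild-type livers. Only knockout male 2 lay above the wild-type males, and knockout males 1 and 3 lay below all of them. All 9 cholangiocyte markers were detected in the knockout groups and 8 of the 9 in each wild-type group, with Cftr at 0 in wild-type males. Their part in the member results was not tested.

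Genes that FXR is known to switch on moved in both directions in knockout females, and most of those called in knockout males rose. The counts of this and the following lists stand beside all-gene shares of 1.9% higher and 2.26% lower in non-tumour liver, 3.94% and 5.67% in tumours, and 14.3% and 6.32% in males. Of 14 listed genes, 13 were tested, and Fgf15 had 0 counts in every library. In non-tumour liver against wild-type females 1 rose and 2 fell, Slc51b (a subunit of the basolateral bile acid exporter) by 5.08 ± 1.02 in log2 units (edgeR adjusted p = 0.0256) and, downwards, the disrupted Abcb11 and the lipase cofactor Apoc2 (-1.64 ± 0.40, edgeR adjusted p = 0.0355). In tumours against wild-type females 1 rose and 5 fell, the disrupted Abcb11 among them. Slc51b differed by 6.14 ± 1.05 (edgeR adjusted p = 0.00627) and the canalicular pump Abcc2 by -1.59 ± 0.34 (edgeR adjusted p = 0.0118). The wild-type females had 10 counts of Slc51b in total (0.187 to 0.337 CPM), near the floor of 3 counts per library. The size of its folds in females is therefore uncertain. Slc51b stood at 3.99 to 13.2 CPM in non-tumour liver and at 3.46 to 35.2 CPM in tumours. In knockout against wild-type males 6 rose and 1 fell, the disrupted Abcb11 (-1.94 ± 0.34, edgeR adjusted p = 0.00127). Abcc2 rose by 1.46 ± 0.32 (edgeR adjusted p = 0.00546) and Abcg8, a sterol transporter, by 1.16 ± 0.34 (edgeR adjusted p = 0.0259). Slc51b stood at 20.7 ± 3.68 CPM in knockout males and had 0 counts in all 3 wild-type males, which is at least 89.1-fold higher when the knockout library with the least is set over a per-library floor of 3 counts. The list's median log2 difference, with Abcb11 included, was -0.01 in non-tumour liver, -0.12 in tumours and 0.82 in males, beside medians over all genes of -0.00016, 0.03 and 0.11.

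The 5 genes listed as repressed by SHP held Cyp7a1, the rate-limiting enzyme of bile acid synthesis. In knockout males 3 of the 5 rose, Cyp7a1 by 4.82 ± 0.66 (edgeR adjusted p = 0.000461), the uptake carrier Slc10a1 by 1.61 ± 0.34 (edgeR adjusted p = 0.00464) and Cyp27a1, a side chain hydroxylase, by 1.14 ± 0.29 (edgeR adjusted p = 0.0123). Cyp7a1 averaged 176 ± 15.4 CPM in knockout males against 6.25 ± 4.34 CPM in wild-type males, so that Nr0b2 and Cyp7a1 were both higher in all 3 knockout males than in all 3 wild-type males. In females Cyp7a1 averaged 39.1 ± 29.5 CPM in tumours, 169 ± 66.2 CPM in non-tumour liver and 317 ± 170 CPM in wild-type liver. It fell in tumours against wild-type females by 3.02 ± 0.64 in log2 units (edgeR adjusted p = 0.0124), the only one of the 5 called there, and none was called in non-tumour liver (Cyp7a1 -0.91 ± 0.62, edgeR adjusted p = 0.435). Cyp8b1, the hydroxylase that directs synthesis towards cholic acid, was called in none of these comparisons but lay wholly below wild type in each. In tumours it ran from 2.03 to 35.4 CPM, and it averaged 24.4 ± 16.4 CPM in the non-tumour knockout livers against 107 ± 56.3 CPM in wild-type females, with a log2 difference of -2.13 ± 1.04 in non-tumour liver (edgeR adjusted p = 0.273). In males it averaged 43.5 ± 1.26 CPM in knockout livers (42.5 to 44.9) against 199 ± 100.2 CPM in wild-type livers (114 to 310), so it lay on the other side of wild type from Cyp7a1. The list's median was -0.17 in non-tumour liver, -1.58 in tumours and 1.14 in males. The clock scores given above moved with genotype in males here too, and 6 of 8 evening clock genes rose in knockout males. With the score as a covariate, 1 of the 5 was called in males, as was 1 of the 13 tested targets of FXR. Calls fell over all 17874 genes too, to 372 in males against 3688 without the score, so this loss is not particular to these lists.

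Among 15 partners and coregulators of FXR, none was called in non-tumour knockout liver, and 2 fell in tumours against wild-type females, the methyltransferase Kmt2c (-1.32 ± 0.32, edgeR adjusted p = 0.0189) and the coactivator Ncoa2 (-0.98 ± 0.24, edgeR adjusted p = 0.0218). In knockout males 4 rose and 1 fell, with the fasting coactivator Ppargc1a at 12.2 ± 1.42 CPM against 1.99 ± 0.67 CPM in wild-type males (log2 2.62 ± 0.42, edgeR adjusted p = 0.000857) and the dimer partner Rxrb at -0.71 ± 0.18 (edgeR adjusted p = 0.0132). Their medians were -0.38 in non-tumour liver, -0.54 in tumours and 0.30 in males.

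Of the other nuclear receptors that sense bile acids, sterols or lipids, those called in knockout females all fell. Of 9 tested, 2 fell in non-tumour liver: Ppara, the fatty acid receptor, by 2.14 ± 0.38 (edgeR adjusted p = 0.0118) and Nr1i3, the xenobiotic receptor CAR, by 1.89 ± 0.37 (edgeR adjusted p = 0.017). In tumours against wild-type females 4 fell, with Nr1i3 at 32.6 ± 11.4 CPM against 249 ± 64.8 CPM (log2 -2.94 ± 0.38, edgeR adjusted p = 0.000625), Ppara at -2.23 ± 0.38, Esr1 at -1.26 ± 0.28 and Rora at -0.80 ± 0.24. In knockout males 3 rose and 1 fell. Among these, Esr1, an oestrogen receptor, rose by 1.71 ± 0.27 (edgeR adjusted p = 0.00068) and Nr1i2, the receptor PXR, by 1.01 ± 0.28 (edgeR adjusted p = 0.019), while Nr1h3, the oxysterol receptor, fell by 0.73 ± 0.22 (edgeR adjusted p = 0.0313). The list's medians were -0.23, -0.75 and 0.24 in non-tumour liver, tumours and males.

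In FGF15 and FGFR4 signalling, Fgf15 and the gut gene Malrd1 and co-receptor Kl were too low to test, and none of the 18 genes tested was called in non-tumour liver. In tumours against wild-type females 2 fell, Dusp6 by 1.34 ± 0.40 (edgeR adjusted p = 0.0463) and Spry4 by 1.75 ± 0.53 (edgeR adjusted p = 0.0483), both feedback inhibitors of the ERK pathway. In males 1 rose, the adaptor Shc1 (0.85 ± 0.19, edgeR adjusted p = 0.00689). The medians were 0.01, 0.09 and 0.24 in non-tumour liver, tumours and males.

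Of 16 other hepatocyte transcription factors, 4 fell in non-tumour liver (2.26% of all genes did), 6 fell in tumours against wild-type females (5.67% of all genes) and 5 rose in knockout males (14.3% of all genes), while the rest did not pass the test. Those called in non-tumour liver included Foxa1, Prox1 and Tbx3. Foxa1, the close relative of Foxa2, averaged 9.43 ± 0.827 CPM in tumours, 13.4 ± 1.68 CPM in non-tumour liver and 32.6 ± 0.646 CPM in wild-type females, a log2 difference from wild type of -1.79 ± 0.25 in tumours (edgeR adjusted p = 0.000952) and -1.28 ± 0.25 in non-tumour liver (edgeR adjusted p = 0.017). Prox1, a homeobox factor that binds LRH-1 and HNF4A, averaged 71.8 ± 11.4 CPM in tumours, 96.7 ± 4.47 CPM in non-tumour liver and 177 ± 18.9 CPM in wild-type females. It fell by 1.30 ± 0.21 in tumours and by 0.87 ± 0.21 in non-tumour liver (edgeR adjusted p = 0.00236 and 0.0312). Onecut1 fell in tumours by 2.93 ± 0.53 (edgeR adjusted p = 0.0046). In knockout males Cebpa rose by 1.16 ± 0.24 (edgeR adjusted p = 0.00449) and Prox1 by 0.94 ± 0.19 (edgeR adjusted p = 0.00346). With the clock score as a covariate none of the 16 was called there, beside 372 of all genes, against 3688 without the score. The medians were -0.57, -0.62 and 0.59 in non-tumour liver, tumours and males.

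Of the genes that need HNF4A in hepatocytes few were called. Of 21 tested, 1 fell in non-tumour liver and 1 in tumours against wild-type females, in both cases G6pc, the glucose-releasing phosphatase (-2.39 ± 0.62 and -2.14 ± 0.62, edgeR adjusted p = 0.0468 and 0.0453). In males 4 of the 21 rose, close to the 14.3% of all genes, and none fell, with the asialoglycoprotein receptor subunit Asgr2 at 2.70 ± 0.36 (edgeR adjusted p = 0.000263) and the urea cycle enzyme Otc at 2.02 ± 0.34 (edgeR adjusted p = 0.00104). The medians were 0.45, 0.26 and 0.52 in non-tumour liver, tumours and males.

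Around the membrane receptors, 14 of 16 genes of bile acid and sphingosine 1-phosphate signalling were tested. In non-tumour liver 1 fell, Sphk2, the nuclear sphingosine kinase (-1.19 ± 0.26, edgeR adjusted p = 0.0243). In tumours against wild-type females 3 fell and 1 rose, with S1pr1 at -1.58 ± 0.34 (edgeR adjusted p = 0.0112) and Sphk1, the cytosolic kinase, at 9.87 ± 2.20 CPM in tumours against 2.38 ± 0.163 CPM in wild-type females (log2 2.05 ± 0.59, edgeR adjusted p = 0.0405). In knockout males 2 rose, the transporter Spns2 by 1.73 ± 0.21 and the adenylyl cyclase Adcy9 by 2.01 ± 0.31 (edgeR adjusted p = 0.000132 and 0.000568). Summed macrophage and monocyte markers, all 11 detected in every group, were 303 to 326 CPM in tumours, 250 to 369 CPM in non-tumour liver and 77.8 to 110 CPM in wild-type females. In males they were 148 to 226 CPM in knockout livers and 110 to 499 CPM in wild-type livers. The part of these markers in the results was not tested. The medians were -0.12, -0.16 and 0.17 in non-tumour liver, tumours and males.

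Between tumour and non-tumour knockout tissue none of the genes on these lists was called. By smallest p, Cyp7a1 differed by -2.11 ± 0.58 and the receptor Esr1 by -1.04 ± 0.26, at an edgeR adjusted p of 0.665 for both. Between wild-type males and wild-type females, 5 of 9 sensing receptors and 6 of 16 hepatocyte factors were lower in males (16.1% of all genes were), and 1 and 0 were higher (7.03% of all genes were), with Esr1 at -2.49 ± 0.29 and Prox1 at -1.73 ± 0.21 (edgeR adjusted p = 7.3e-05 and 9.7e-05). In that comparison 5 of 8 evening clock genes were also lower in males.

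By the root mean square difference of centred log2 CPM over the 14 libraries, the protein-coding genes most like Nr1h4 were Zfp410 (0.166) and Cpsf1 (0.174), against a median of 0.836 over the genes tested. Those most like Hnf4a were Lcat (0.144), which esterifies plasma cholesterol, and Crk (0.151), against a median of 0.639. For Nr5a2 they were Homer1 (0.179) and Cflar (0.203), for Fgfr4 Kin (0.194) and Setd4 (0.250), and for Klb Mms19 (0.246) and Tango6 (0.258). For Foxa2 they were Ccl27a (0.300) and mt-Nd3 (0.334), and for S1pr2 D430019H16Rik (0.335) and Gbp4 (0.335). The nearest to Nr0b2 were Pla2g6 (0.522) and Osbpl5 (0.562), against a median of 1.10.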

How the data were processed

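Liver RNA of 14 libraries in 5 groups was analysed, with groups taken from the sample labels. Per the submitters' processing notes, the tools named are HISAT2 2.0.5 and featureCounts 1.5.0-p3 with genome build GRCm38. The deposited counts are whole fragment counts per gene without scaling, and they were used for every test. The authors' FPKM values relate those fragments to gene length and library size, and served only to set levels of different genes side by side. The strand setting is not given in the sources used here.

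Of 54532 genes, 17874 passed filterByExpr on the 5 groups. Symbols that had become dates (27) were repaired from their gene IDs, and no libraries were identical. All 14 libraries were scaled by TMM and tested in 1 fit with edgeR 4.0.16 (R 4.3.3), by its robust quasi-likelihood F test, 2-sided. The common biological coefficient of variation was 0.4417. Adjustment followed Benjamini-Hochberg across the tested genes of each comparison, with a threshold of 0.05, and every adjusted p is from this test unless another tool is named. The SE was obtained by dividing the log2 fold change by the root of its F statistic. A fold change of a member is given where it exceeds its SE. The fit was tested on simulated data. The floor was 3 counts and covers counting error only.

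The 9 members, the 10 pathway lists and the 9 marker lists (191 genes, all matched, 1 by a synonym) were chosen with earlier results of these data known. Genes named are all members and, for each list and comparison described, up to 4 called genes of smallest p, or, where none is called, up to 2 by value. A few genes named by it are left out here. Likeness used log2 CPM with a prior count of 2 over 14389 protein-coding genes. Promoters are RefSeq sequences of GRCm38.p6.

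Each library was left out in turn. Other alternatives were DESeq2 1.42.0, limma-voom 3.58.1 with quality weights, scaling by RLE or the upper quartile, dropping the low-count filter or using 1 CPM in 3 libraries, fitting only the groups compared, blocking on the replicate number, and the clock score as a covariate. A block within knockout females alone, and both knockout female libraries numbered 1 left out, were added after seeing the data. The labels do not say that equal numbers mark 1 animal. Over 6027 genes, deviations of tumour and non-tumour libraries of equal number had correlations of 0.493, 0.433 and 0.306. By the rule used the numbers were read as pairs there, but only in the alternatives with a block. The reported tests hold no pairing term and treat these libraries as independent. Males and females cannot share an animal, yet knockout males and non-tumour knockout females reached 0.416 and 0.443 for numbers 2 and 3. They had -0.070 for number 1, and non-tumour liver 2 reached 0.461 with knockout male 1, of unequal number. Knockout and wild-type males of equal number had -0.068, -0.255 and -0.329 and were not read as pairs.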

Additional observations from a re-analysis of the deposited data

Results flagged for a closer look

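The genes here were picked out because the knockout effect in females (non-tumour against wild-type) and that in males differed by the test of the difference itself, given as the female minus the male log2 difference; all are list genes, and none of the 9 members met this rule. Of the genes FXR switches on, the difference was -2.47 for Abcc2 (edgeR adjusted p = 0.00465), -1.78 for Abcg5 (edgeR adjusted p = 0.0159), -1.99 for the disrupted Abcb11 (edgeR adjusted p = 0.0181) and -2.02 for Abcg8 (edgeR adjusted p = 0.0193). Abcc2 averaged 397 ± 159 CPM in non-tumour knockout females against 802 ± 141 CPM in wild-type females, and 545 ± 61.2 CPM in knockout males against 199 ± 42.2 CPM in wild-type males. For Cyp7a1 it was -5.72 (edgeR adjusted p = 0.00195).

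Among the hepatocyte transcription factors the difference was -1.81 for Prox1 (edgeR adjusted p = 0.0015), -1.83 for Foxa1 (edgeR adjusted p = 0.00389) and -3.59 for Onecut1 (edgeR adjusted p = 0.0061). Prox1 averaged 96.7 ± 4.47 CPM in non-tumour knockout females against 177 ± 18.9 CPM in wild-type females, and 102 ± 7.14 CPM in knockout males against 53.3 ± 1.55 CPM in wild-type males. The clock score moved with genotype in males (2.70 to 3.46 in knockout males, -1.85 to -1.42 in wild-type males) and ran from -0.293 to 4.86 in non-tumour knockout females and from 1.27 to 1.73 in wild-type females. With the score as a covariate, 548 of all genes were called for the difference between the sexes, against 1945 without it, and 5 against 7 of the 16 hepatocyte transcription factors.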

How the results depend on the processing

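A tally was made only of member results whose reported fold change exceeded its SE. Over their alternatives, 545 values had the same direction and side of the threshold as reported, 34 lost a call, 19 gained one and 2 reversed. Smaller differences, whose sign turns more easily, were left out, so the number of reversals does not cover them. The reversals were Nr0b2 in knockout against wild-type males with the clock score as a covariate (-1.44) and S1pr2 in the same comparison without wild-type male 3 (0.17; -1.10 to 0.17 over the libraries left out in turn). The number of the 8 members called in non-tumour knockout against wild-type females (1 as reported) was 3 without the low-count filter, 2 with DESeq2, 2 with limma-voom, 0 with the replicate block and 3 with the block within knockout females. Over all genes these settings called 1739 of 28842, 1885 of 28664, 3397, 480 and 1052, against 743 as reported. With the clock score and without both libraries numbered 1 the count was again 1, but of Foxa2 and of Nr0b2 in place of Nr5a2, and the libraries numbered 1 are those with the least Nr0b2, so that setting gives Nr0b2 no support. In tumours against wild-type females (2 as reported) it was 1 with the replicate block and 3 without the filter (1372 and 2516 of all genes, against 1718). In knockout against wild-type males (1 as reported) it was 2 without the filter, 0 with limma-voom, 2 with only the groups compared, 2 with the block within knockout females, 0 with the clock score and 2 with both knockout female libraries numbered 1 left out (4065, 3183, 2262, 3662, 372 and 3307 of all genes, against 3688). Between wild-type males and wild-type females (1 as reported) it was 0 without the filter, 0 with only the groups compared, 0 with the replicate block, 3 with the clock score and 0 without both libraries numbered 1 (4634, 1824, 3522, 1822 and 3731 of all genes, against 4137). For the difference between the sexes (0 as reported) it was 1 with limma-voom (3333 of all genes, against 1945).

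Leaving out each library in turn gave 0 to 2 members called in non-tumour knockout against wild-type females, 0 to 2 in tumours against wild-type females, 0 to 1 in knockout males, 0 to 1 between the wild-type sexes, and 0 to 0 both for tumour against non-tumour tissue and for the female minus the male effect. The all-gene counts moved as well. With a library other than a wild-type female left out, they were 146 to 1215 in non-tumour liver, 799 to 2540 in tumours and 2462 to 4055 in males. Between the wild-type sexes they were 3348 to 4775, for tumour against non-tumour tissue 0 to 42 and for the female minus the male effect 884 to 2604. Fits with 1 wild-type female are not in these ranges. The block, read as pairs for tumour and non-tumour tissue, changed no member call in that comparison, and the other block values above rest on numbers that the libraries only share. Without the filter, Nr0b2 was called in both female knockout groups and in males. Of 60 list counts, 30 moved by over 1.5 times with the clock score, 28 when wild-type female 3 was left out, 24 when wild-type female 2 was and 20 without the filter. The cause was not tested. With 2 wild-type females, and with Gpbar1 at 0 to 11 counts, small differences were not detectable here.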

Other observations

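Per transcript length, the members can be set among other liver factors on the authors' FPKM scale. Over the 14 libraries Hnf4a (median 66.3) and Nr1h4 (63.1) stood near Creb3l3 (82.3), Cebpb (78.3), Cebpa (69.4) and Nr1i2 (64.0), and above Nr1h3 (31.8) and Rxra (27.3). Foxa2 (16.6) stood near its relative Foxa3 (16.3) and above Foxa1 (4.50). Nr5a2 (3.71) stood near the glucocorticoid receptor gene Nr3c1 (4.32) and Gata4 (3.76), and Vdr, a further bile acid sensing receptor, had a median of 0.0219. In FPKM Foxa1, Foxa2 and Foxa3 averaged 2.67, 10.7 and 13.0 in tumours, 3.78, 11.2 and 15.3 in non-tumour knockout liver and 9.29, 27.4 and 18.5 in wild-type females.

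Marker lists not given above were summed in the same way. Kupffer cell markers were 44.7 to 214 CPM in tumours, 111 to 273 CPM in non-tumour knockout liver and 65.2 to 69.4 CPM in wild-type females. They were 94.3 to 235 CPM in knockout males against 69.3 to 166 CPM in wild-type males. Sinusoidal endothelial markers were 157 to 201 CPM in tumours, 136 to 161 CPM in non-tumour liver and 150 to 159 CPM in wild-type females, and 117 to 149 CPM in knockout males against 192 to 267 CPM in wild-type males. Stellate cell and fibroblast markers were 261, 575 and 296 CPM in tumours 1, 2 and 3, 260 to 329 CPM in non-tumour liver and 167 to 235 CPM in wild-type females. In males they were 130, 308 and 138 CPM in knockout livers 1, 2 and 3, against 192 to 268 CPM in wild-type livers. The highest values in tumours and in knockout males were thus each from 1 library. Adipocyte markers were 76.6 to 384 CPM in tumours, 25.6 to 59.1 CPM in non-tumour liver and 9.40 to 9.73 CPM in wild-type females. In males they were 58.5 to 72.3 CPM in knockout livers and 75.2 to 167 CPM in wild-type livers. Lep was at 0 in all groups and Adipoq at 0 outside the tumours. Neutrophil markers were 15.2 to 49.1 CPM in tumours, 11.9 to 33.3 CPM in non-tumour liver and 11.7 to 15.7 CPM in wild-type females. In males they were 8.93 to 19.6 CPM in knockout livers and 34.1 to 48.4 CPM in wild-type livers, with Ly6g at 0 in both male groups. Of the 4 morning clock genes, 1 fell in tumours against wild-type females (Clock, -1.15 ± 0.28, edgeR adjusted p = 0.0195) and 1 in knockout against wild-type males (Npas2, -3.06 ± 1.01, edgeR adjusted p = 0.0449).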
